A study of Drosophila melanogaster with 10 samples.

Results

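The 9 genes described here encode the oxidase and peroxidase that act at the surface of the Drosophila gut, Duox and Irc, and the antioxidant enzymes Cat, Sod, Sod2, Jafrac1, Trx-2, Trxr-1 and PHGPx. They were taken by gene symbol from the deposited tables. All 9 were found among 13995 genes, each in a single record, and each was above the deposited floor of 1 FPKM in all 10 libraries, so the tests below kept all 9. An alternative filter at a mean of 5 FPKM removed Duox. FPKM is a fragment count divided by transcript length and by the library's mapped total, so levels can be set side by side between genes. RNA-seq of total RNA had been made from whole male larvae of the third instar, raised at 25 °C, in 5 genotypes with 2 biological replicates each. The control was the stock y w, which carries yellow and white alleles that the 4 other genotypes carry too. The mutant was y w, atf3[76], an allele of Activating transcription factor 3. Each of the other 3 genotypes added 1 copy of a further allele or element to atf3[76], namely dfoxo[25J13]/+, rel[E20]/+ or atf3[A]/+, and they are written foxo/+, rel/+ and atf3[A]/+ from here on. The labels give no lesion for any allele, do not say what atf3[A] is, do not say how many larvae made up a library and do not tell whether replicates were raised apart, so a p-value reflects only how far these libraries spread, which may be technical.

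Reactive oxygen at the fly gut is made and removed by a short chain of enzymes. Duox, the dual oxidase of barrier epithelia, releases hydrogen peroxide when microbes are sensed, and Irc, a secreted catalase with a heme peroxidase domain, removes it in the gut lumen. Inside cells, superoxide is turned into hydrogen peroxide by Sod, the cytosolic copper-zinc dismutase, and by Sod2, the manganese dismutase of mitochondria. Cat, the peroxisomal catalase, and the thiol peroxidases Jafrac1 and PHGPx then reduce the peroxide. Jafrac1 is a cytosolic peroxiredoxin, and PHGPx is a homologue of glutathione peroxidases that in flies draws on thioredoxin. Flies lack glutathione reductase, so Trx-2, the main thioredoxin, and Trxr-1, the thioredoxin reductase that recharges it with NADPH, supply electrons to this whole branch.

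The libraries were not equal in depth. Read depth is not given, but the step between low values of short records put replicate 1 of y w at 0.518 times the depth of its replicate 2 and replicate 1 of atf3[76] at 0.649 times. By the same reading 6 libraries had 0.955 to 1.02 times that depth, and foxo/+ replicate 2 gave no clear step. In the same 2 shallow libraries, 3.86% and 4.53% of the genes expressed elsewhere were listed at 1, against 0.136% to 1.31% in the others. The summed FPKM of 10 midgut markers was also highest in these 2, at 11582.5 in y w and 13066.4 in atf3[76], with 3774 to 5200 elsewhere. Jon65Aiv alone made 8335 and 10849 FPKM of these 2 sums, and the other markers did not all follow. LManI, for instance, had its lowest value of the 10 libraries in y w replicate 1, at 4.93 FPKM. Markers of midgut, fat body, Malpighian tubule, testis and salivary gland were all above 1 in at least 1 library. The hemocyte gene lz and the muscle genes Mhc, up and wupA were listed at 1 in all 10, so a value of 1 may be a failed estimate and is given below as listed at 1. RNA of Atf3, listed as A3-3, was 3.28 and 4.14 FPKM in the control and 6.09 to 15.1 FPKM in the 8 libraries with atf3[76]. Because the lesion is not given, this level does not check the labels. In whole larvae, fewer cells of a type and less RNA per cell cannot be told apart.

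By median over the 10 libraries, 5 of the enzymes formed a group of like level. Trx-2 stood at 108 FPKM, Jafrac1 at 103, Sod at 96.1, PHGPx at 95.0 and Cat at 87.2, which placed them between rank 361 and rank 445 of all genes. The ranges of these 5 overlapped. Trxr-1 at 41.4 FPKM and Sod2 at 40.2 FPKM came next, also with overlapping ranges. Irc followed at 17.2 FPKM, with a range of 14.2 to 21.2 that met neither neighbour. Duox was the lowest of the 9 at 3.44 FPKM, with a range of 2.13 to 5.63, and ranked 8594. At that level a few fragments move its value.

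**Figure D1:**
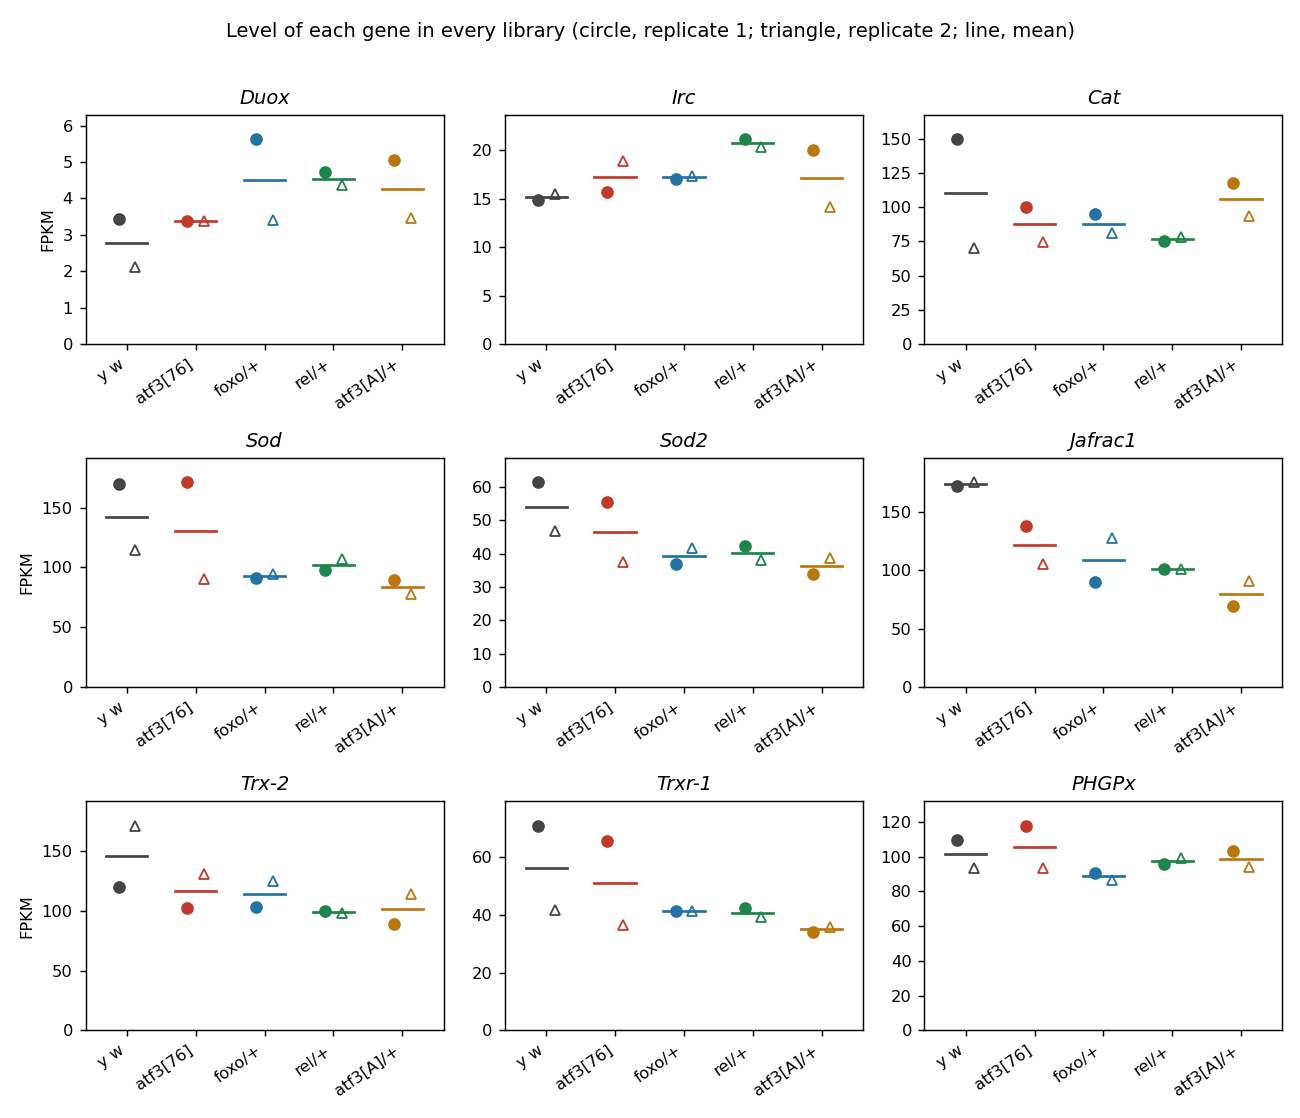
FPKM (vertical axes, from 0) of each of the 9 genes in the 2 libraries of y w, atf3[76], foxo/+, rel/+ and atf3[A]/+; circles are replicate 1, triangles replicate 2 and lines the group mean. Jafrac1 is the gene of the 9 whose 8 libraries with atf3[76], at 69.3 to 138 FPKM, all sit below both y w libraries, at 172 and 175 FPKM. Of all genes tested, 3.11% do so. Replicate 1 of y w and of atf3[76] stand high for Sod, Sod2 and Trxr-1.

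None of the 9 genes passed an adjusted p of 0.05 in limma in any of 9 tests, and the clearest pattern belonged to Jafrac1. Its level was lower than in y w in every library that carried atf3[76], as in 3.11% of all genes tested. Its mean was lowest with atf3[A]/+, whose libraries overlapped those of foxo/+. Few genes of any kind passed. The share called was 0.0364% of genes in atf3[76] against y w, 0.195% with foxo/+, 0.555% with rel/+ and 0.361% with atf3[A]/+. It was 0.562% for the mean of the 4 atf3[76] genotypes against y w and 0.407% for any difference among the 5 genotypes. With 2 libraries a side the smallest two-sided exact permutation p of a single gene is 0.333, so the tests below rest on the spread that limma shares across genes.

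Duox (2L:2815969-2830236 in BDGP R5 coordinates, a span that contains the low gene CG3123) measured 3.43 and 2.13 FPKM in y w and 3.37 FPKM in both atf3[76] libraries. It measured 5.63 and 3.40 FPKM with foxo/+, 4.72 and 4.38 with rel/+, and 5.06 and 3.46 with atf3[A]/+. Both rel/+ libraries and both atf3[A]/+ libraries lay above both y w libraries, while atf3[76] and foxo/+ overlapped y w. With atf3[A]/+ this was nearly a tie, at 3.46 FPKM in its replicate 2 and 3.43 FPKM in y w replicate 1. Differences are given on the log2(FPKM + 1) scale, on which low genes appear to change less than they do. The difference from y w was 0.23 ± 0.29 (SE) in atf3[76], 0.54 ± 0.32 with foxo/+, 0.58 ± 0.25 with rel/+ and 0.48 ± 0.32 with atf3[A]/+. None passed (adjusted p 0.220 to 1.00), and under quantile normalization the foxo/+ and rel/+ differences turned to -0.019 and -0.070. The median of all genes was itself shifted, by 0.11, 0.32, 0.40 and 0.0052 in the same order, which left Duox 0.12, 0.22, 0.17 and 0.48 above it. For genes as a whole, both libraries stood above both y w libraries in 56.6% of genes with rel/+ and in 18.2% with atf3[A]/+.

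Irc (3R:12828598-12832930) measured 14.9 and 15.5 FPKM in y w and 15.7 and 18.9 in atf3[76]. It measured 17.1 and 17.4 FPKM with foxo/+, 21.2 and 20.4 with rel/+, and 20.02 and 14.2 with atf3[A]/+. The rel/+ libraries were the 2 highest of the 10, and atf3[A]/+ spread across the y w level. Irc was above y w in both libraries of atf3[76], foxo/+ and rel/+, as were 16.8%, 48.2% and 56.6% of all genes. Its largest difference, 0.43 ± 0.18 with rel/+ (adjusted p = 0.216), was 0.025 above the median of all genes. With foxo/+ the difference was 0.17 ± 0.20, and it turned to -0.18 with each library centred on its median and to -0.057 under quantile normalization.

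Of 9 other oxidases and heme peroxidases listed with Duox and Irc, 6 were tested against y w in the model of all genotypes, and 3 (Pxt, CG6969 and CG4009) were listed at 1 in all 10 libraries. In the mean of the 4 atf3[76] genotypes against y w 5 of the 6 lay above 0, with a median of 0.79 against 0.22 for all genes, and none was called. Pxn, the extracellular matrix peroxidasin that hemocytes make, was the one gene called from any list in any comparison, with an adjusted p of 0.0237 for rel/+ and 0.0235 for atf3[A]/+. Its value was 1 in 5 libraries, namely the 2 of y w, the 2 of foxo/+ and replicate 1 of atf3[76], and it stood at 18.3 FPKM in atf3[76] replicate 2, 14.5 and 18.9 FPKM with rel/+ and 18.8 and 14.3 FPKM with atf3[A]/+. A gene that switches in this way between 1 and a far higher level gives no fold. The call was lost with rel/+ without any 1 of 3 libraries (y w replicate 1 and either rel/+ library) and with atf3[A]/+ without any 1 of its 4, with adjusted p up to 0.4123 and 0.6725. Both calls were also lost in one model of all 5 genotypes (adjusted p = 0.1604 and 0.3025) and with no filter on low values (adjusted p = 0.0715 and 0.1995). The summed hemocyte markers ranged from 36.1 to 37.0 FPKM in y w and from 36.0 to 76.7 FPKM in the others. This sum includes Pxn, so part of any likeness to Pxn is built in. Of 5 hemocyte markers tested, again with Pxn, 4 lay above 0 with rel/+, with a median of 0.33 against 0.40 for all genes. With atf3[A]/+ all 5 did, with a median of 0.49 against 0.0052. The part of hemocytes in this result was not tested. Pxd, named for its level, had a median of 19.4 FPKM, and the heme peroxidase CG5873 measured 1.78 and 1.00 FPKM in y w and 1.54 to 6.06 FPKM in the other 8. Nox, the second NADPH oxidase of the fly, was chosen after its values were seen. It measured 2.33 and 1.60 FPKM in y w and between 2.89 and 6.85 FPKM in all 8 other libraries, a mean difference of 0.93 ± 0.30 (adjusted p = 0.231). Levels above both y w libraries in all 8 others were seen in 2 of the 48 pathway genes tested, Nox and Mkp3. That is 4.17%, against 5.55% of all genes.

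The signals that raise Duox expression and activity run through phospholipase C, calcium and p38 kinases. Of 11 genes listed for signalling to Duox, 10 were tested and norpA was listed at 1 throughout. The list holds a phosphatase of the MAP kinases as well as kinases, so a count above 0 gives no direction for the signal. None was called in any comparison. In the mean of the 4 atf3[76] genotypes against y w 9 of 10 lay above 0, with a median of 0.28 against 0.22 for all genes. Mkp3, a phosphatase of the MAP kinases, had the smallest p of any pathway gene in that contrast. It measured 3.99 and 4.08 FPKM in y w and 5.23 to 9.25 FPKM in the 8 others, a difference of 0.62 ± 0.12 (adjusted p = 0.0962). Mkp3 was, with Nox, one of the 4.17% of pathway genes above both y w libraries throughout, against 5.55% of all genes. The p38 kinase gene p38c measured 11.5 and 13.1 FPKM in y w and 19.9 and 22.4 in atf3[76] (difference 0.74 ± 0.26, adjusted p = 1.00). It measured 13.1 and 18.0 FPKM with foxo/+, 19.2 and 14.6 with rel/+, and 12.9 and 13.5 with atf3[A]/+. Mpk2, the p38 kinase of highest level in the list, had a median of 18.2 FPKM.

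Sod (3L:11105380-11106838) was lower than y w in every library of the 3 genotypes with a further allele, but 1 library of atf3[76] matched the y w high value. Of all genes, 9.30% lay below both y w libraries with foxo/+, 8.71% with rel/+ and 17.7% with atf3[A]/+. The share for the 3 genotypes together was not computed. It measured 170 and 115 FPKM in y w and 171 and 90.0 FPKM in atf3[76]. It measured 91.1 and 94.7 FPKM with foxo/+, 97.5 and 107 with rel/+, and 89.8 and 78.2 with atf3[A]/+. The differences from y w were -0.17 ± 0.43 in atf3[76], -0.58 ± 0.27 with foxo/+ (adjusted p = 0.316), -0.45 ± 0.26 with rel/+ (adjusted p = 0.305) and -0.73 ± 0.31 with atf3[A]/+ (adjusted p = 0.668). The 2 highest values came from the 2 shallow libraries, in which the midgut sum, mostly Jon65Aiv, also stood high. The part of depth or of midgut in this level was not tested. Without y w replicate 1, the atf3[76] difference turned to 0.11.

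Sod2, on chromosome arm 2R, showed the same order at a lower level. It measured 61.4 and 46.9 FPKM in y w, 55.6 and 37.4 FPKM in atf3[76], 37.1 and 41.7 with foxo/+, 42.3 and 38.1 with rel/+, and 34.0 and 38.8 with atf3[A]/+. The 6 libraries with a further allele all lay below both y w libraries, and atf3[76] overlapped them. The shares of all genes are those given with Sod, 9.30% with foxo/+, 8.71% with rel/+ and 17.7% with atf3[A]/+. The largest difference was -0.55 ± 0.28 with atf3[A]/+ (adjusted p = 0.715).

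Cat (3L:18815705-18821294) set no genotype apart. It measured 150 and 70.3 FPKM in y w, the highest and the lowest value of the 10 libraries, so that every other library lay between them. It measured 100 and 74.9 FPKM in atf3[76], 94.8 and 80.9 with foxo/+, 75.6 and 78.5 with rel/+, and 118 and 93.5 with atf3[A]/+. The mean difference of the 4 atf3[76] genotypes from y w was -0.21 ± 0.28, and it was 0.28 without the 2 shallow libraries.

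The 3 other genes of superoxide and peroxide removal on the list were all tested, and none was called. CG9027, an extracellular superoxide dismutase, stood between 50.0 and 59.3 FPKM in y w and between 53.5 and 71.8 FPKM in the 8 others. CCS, the chaperone that loads copper into Sod, was 9.30 and 8.89 FPKM in the control and 9.29 to 11.5 FPKM in the others, so the groups overlapped. CG9314, a second catalase gene, measured 13.8 and 7.10 FPKM in y w and 9.60 and 11.1 FPKM in atf3[76]. It measured 18.1 and 14.1 FPKM with foxo/+, 15.8 and 16.5 with rel/+ and 9.96 and 4.92 with atf3[A]/+. Both libraries stood above both y w libraries with foxo/+ and with rel/+, as did 48.2% and 56.6% of all genes.

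Jafrac1 (X:13223880-13226030) measured 172 and 175 FPKM in y w. It measured 138 and 105 FPKM in atf3[76], 90.5 and 128 with foxo/+, 101 and 102 with rel/+, and 69.3 and 91.0 with atf3[A]/+. The 2 libraries of y w and of rel/+ were each close to the other, and the highest of the 8 libraries with atf3[76] was 138 FPKM. Levels below both y w libraries in all 8 were seen in 3.11% of all genes tested, and levels above both in all 8, which no member showed, in 5.55%. Relative to the y w mean, Jafrac1 stood at 70.0% in atf3[76], 62.9% with foxo/+, 58.3% with rel/+ and 46.1% with atf3[A]/+. The log2 differences were -0.52 ± 0.27 (adjusted p = 1.00), -0.68 ± 0.25 (adjusted p = 0.270), -0.77 ± 0.18 (adjusted p = 0.156) and -1.12 ± 0.27 (adjusted p = 0.435). The mean over the 4 genotypes was -0.77 ± 0.18, with an adjusted p of 0.150. With no filter on low values the rel/+ difference passed the threshold (adjusted p = 0.0292), the one setting in which a member did. These differences stand against medians of all genes that were above 0, and the mean lay 0.99 below the median. By mean its order was y w, atf3[76], foxo/+, rel/+ and atf3[A]/+. In that order y w did not overlap atf3[76] and rel/+ did not overlap atf3[A]/+, while the pairs between them overlapped. The foxo/+ libraries also overlapped those of atf3[A]/+, at 90.5 FPKM in foxo/+ replicate 1 and 91.0 FPKM in atf3[A]/+ replicate 2. The summed FPKM of 6 muscle markers, 3 of which were listed at 1 in all 10 libraries, lay on the same sides. The sum was 3042 and 2817 in y w and 1740 to 2749 in the 8 other libraries, below both. Taken singly, the 3 others, Act57B, Tm2 and Mlc2, each overlapped y w. Act57B, for example, was 2211 and 1825 FPKM in y w and 1902 FPKM in atf3[76] replicate 1. The part of muscle in the Jafrac1 level was not tested.

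**Figure D2:**
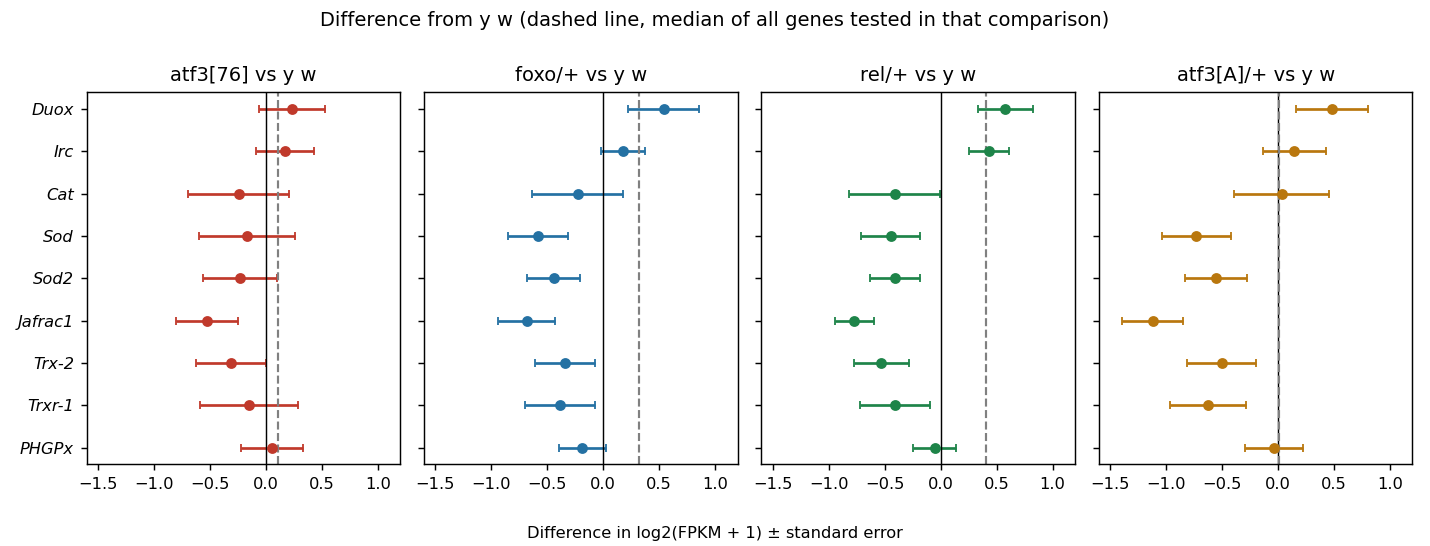
Difference from y w in log2(FPKM + 1) with its standard error (horizontal axes) for the 9 genes in 4 panels, atf3[76], foxo/+, rel/+ and atf3[A]/+; the solid line is 0 and the dashed line the median of all genes tested. Jafrac1 is the lowest point in each panel, from -0.52 to -1.12, and Duox and Irc lie above 0 in all 4.

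Trx-2 (2L:9613164-9616048) measured 120 and 171 FPKM in y w, 102 and 131 FPKM in atf3[76], 103 and 124 with foxo/+, 99.7 and 98.3 with rel/+, and 89.3 and 114 with atf3[A]/+. The rel/+ and atf3[A]/+ libraries lay below both y w libraries, as in 8.71% and 17.7% of all genes, and the other 2 genotypes overlapped y w. The higher y w library was replicate 2, not the shallow one. The differences from y w ran from -0.31 ± 0.32 in atf3[76] to -0.53 ± 0.25 with rel/+ (adjusted p = 0.239).

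Trxr-1 (X:8136516-8142072, overlapping the gene sni) measured 70.8 and 41.5 FPKM in y w and 65.5 and 36.4 FPKM in atf3[76]. It measured 41.3 and 41.5 FPKM with foxo/+, 42.5 and 39.1 with rel/+, and 34.2 and 35.7 with atf3[A]/+. The 2 high values were again those of the shallow libraries, and the other 8 lay between 34.2 and 42.5. Its largest difference was -0.62 ± 0.34 with atf3[A]/+ (adjusted p = 0.744), and the atf3[76] difference of -0.15 ± 0.44 turned to 0.23 without y w replicate 1. Strand is not stated, so reads of sni, at 7.002 to 17.7 FPKM, cannot be told apart where the 2 genes overlap.

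PHGPx (3L:3326290-3328626, overlapping CG11526) varied least of the 9, with a highest value 1.36 times the lowest. It measured 110 and 93.1 FPKM in y w, 118 and 93.5 FPKM in atf3[76], 90.7 and 86.7 with foxo/+, 95.9 and 98.9 with rel/+, and 103 and 94.1 with atf3[A]/+. The mean difference of the 4 genotypes from y w was -0.056 ± 0.13, and it was 0.020 without the 2 shallow libraries.

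None of the other peroxiredoxins was called, and most lay on the same side of 0 as Jafrac1. As a sum, though not singly, the muscle markers given with Jafrac1 lay below both y w libraries in the same 8. Their part in these levels was not tested. Of 7 listed genes (6 peroxiredoxins and the sulfiredoxin gene CG6762), all were tested and 6 lay below 0 in the mean of the 4 atf3[76] genotypes against y w, with a median of -0.34 against 0.22 for all genes. Prx5 measured 58.9 and 64.7 FPKM in y w and 40.6 to 50.2 FPKM in the 8 others, with no overlap (difference -0.45 ± 0.12, adjusted p = 0.174). Of the 48 pathway genes tested 2, Prx5 and Gclc, were below both y w libraries in all 8 others, which is 4.17% against the 3.11% of all genes. Prx5037 measured 48.3 and 35.4 FPKM in y w and 23.1 to 37.7 FPKM in the others (difference -0.53 ± 0.16, adjusted p = 0.212). Prx5037 encodes the peroxiredoxin of the mitochondrial matrix.

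Of 7 other thioredoxin genes, all were tested, none was called, and 5 lay above 0 in the same contrast, with a median of 0.11 against 0.22 for all genes. With foxo/+ 6 of the 7 lay above 0, with a median of 0.39 against 0.32 for all genes, and with rel/+ 5 of 7 did, with 0.51 against 0.40. In atf3[76] 6 of 7 lay below 0, with a median of -0.14 against 0.11 for all genes, and with atf3[A]/+ 6 of 7 did, with -0.29 against 0.0052. The differences between genotypes were not tested for the list as a whole. Singly, none of the 7 was called by limma against atf3[76]. The smallest adjusted p was 0.656 for foxo/+, 0.485 for rel/+ and 0.629 for atf3[A]/+, and 0.326 for any difference among the 5 genotypes. Trxr-2, the mitochondrial thioredoxin reductase, measured 2.90 and 2.18 FPKM with foxo/+ and 2.61 and 2.80 with rel/+, against 2.23 and 1.00 in y w, 1.17 and 1.00 in atf3[76] and 1.17 and 1.00 with atf3[A]/+. CG8517 measured 24.6 and 24.0 FPKM with foxo/+ and 20.2 and 26.9 with rel/+, against 15.4 and 13.3 in y w, 9.19 and 17.5 in atf3[76] and 14.9 and 7.34 with atf3[A]/+. The summed FPKM of 4 testis markers was also highest in these 2 genotypes, from 77.1 to 89.2 with foxo/+ and 68.1 to 95.3 with rel/+, against 30.5 to 38.7 in y w, 23.3 and 65.2 in replicates 1 and 2 of atf3[76] and 24.1 to 42.3 with atf3[A]/+. In atf3[76], replicate 2 had the higher testis sum and the higher CG8517, but Trxr-2 was listed at 1 there and at 1.17 FPKM in replicate 1. The part of testis in these levels was not tested. Txl had the highest median of the list, 36.1 FPKM.

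Counted together, the 9 genes had a median below 0 in every comparison with y w, while the median of all genes lay above 0. In atf3[76] 6 of 9 lay below 0, with a median of -0.17 against 0.11 for all genes. The median was -0.34 against 0.32 with foxo/+, -0.41 against 0.40 with rel/+ and -0.50 against 0.0052 with atf3[A]/+, where 7, 7 and 6 of 9 lay below 0. The atf3[76] median rested on single libraries. It turned to 0.15, with 3 of 9 below 0, without the shallow y w replicate 1, and to 0.050, also with 3 of 9 below 0, without atf3[76] replicate 2. Without y w replicate 1 the medians with foxo/+, rel/+ and atf3[A]/+ shrank to -0.070, -0.027 and -0.24, with 6, 5 and 5 of 9 below 0. Without adjustment for multiple tests none of the 9 had p under 0.05 in atf3[76], as did 3.56% of all genes (391 of 10983). Jafrac1 alone was lower at p under 0.05 with foxo/+, with rel/+ and with atf3[A]/+, against 2.34%, 3.02% and 3.76% of all genes, and in the mean of the 4 genotypes, against 4.65%. In the test of any difference it was again the one member with p under 0.05 (adjusted p = 0.319), against 14.7% of all genes. These comparisons share the y w libraries and are not independent of each other.

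Both libraries lay below both y w libraries for 1 of the 9 genes in atf3[76], against 5.73% of all genes. They did so for 5 with foxo/+ (Sod, Sod2, Jafrac1, Trxr-1 and PHGPx; 9.30% of all genes), for 4 with rel/+ (Sod, Sod2, Jafrac1 and Trx-2; 8.71%) and for 5 with atf3[A]/+ (Sod, Sod2, Jafrac1, Trx-2 and Trxr-1; 17.7%). Trxr-1 with foxo/+ was nearly a tie, at 41.50 FPKM in foxo/+ replicate 2 and 41.54 FPKM in y w replicate 2. With each library centred on its median, the count lower at p under 0.05 was 5 with foxo/+ (9.91% of all genes), 6 with rel/+ (11.1%), 2 with atf3[A]/+ (4.85%) and 5 in the mean of the 4 genotypes (10.2%), and again none passed after adjustment. Sod under that setting was -0.93 ± 0.21 with foxo/+ (adjusted p = 0.209) and -0.86 ± 0.20 with rel/+ (adjusted p = 0.155). The count depended on the scaling. Under quantile normalization 0 members had p under 0.05 with foxo/+, and 1 did without scaling. The median of the 9 with foxo/+ was -0.21 under quantile normalization and -0.69 with centred libraries.

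The authors' deposited table marks none of the 9 as lower in atf3[76], against 1.24% of records. In the authors' deposited table Sod and Jafrac1 are marked down with foxo/+ (3.17% of records), Jafrac1 with rel/+ (3.55%), and Sod, Jafrac1 and Trxr-1 with atf3[A]/+ (6.41%). The same table marks Duox up with rel/+, as it does 28.6% of records. The fold changes of Jafrac1 in the authors' deposited table are -1.59 with foxo/+, -1.71 with rel/+ and -2.17 with atf3[A]/+. No source used here states the rule behind those calls.

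Set against atf3[76] itself, the further alleles moved none of the 9 past the threshold, as asked of limma in one model of all 10 libraries. The share of genes called was 0.0519% for foxo/+, 0.0865% for rel/+ and 0.0779% for atf3[A]/+. Before adjustment, no member had p under 0.05 for foxo/+ (5.40% of genes, 624) or for rel/+ (7.43%, 859), and Jafrac1 alone was lower for atf3[A]/+ (6.52% of genes), at -0.60 ± 0.23 with an adjusted p of 0.608. That value was -0.45 with libraries centred on their median. Both foxo/+ libraries lay below both atf3[76] libraries for PHGPx (6.50% of genes) and above them for Duox (32.0%). Both rel/+ libraries lay below for Jafrac1 and Trx-2 (5.55%) and above for Duox and Irc (44.5%). Both atf3[A]/+ libraries lay below for Sod, Jafrac1 and Trxr-1 (23.9%) and above for Duox (8.88%). Some of these gaps were nearly ties. Sod was at 89.76 FPKM in atf3[A]/+ replicate 1 and 89.96 FPKM in atf3[76] replicate 2. Duox was at 3.40 FPKM in foxo/+ replicate 2 and 3.46 FPKM in atf3[A]/+ replicate 2, against 3.37 FPKM in atf3[76]. Sod, Sod2 and Trxr-1 were 1.90, 1.49 and 1.80 times as high in atf3[76] replicate 1 as in replicate 2, and the foxo/+ and rel/+ differences of these 3 turned above 0 without the 2 shallow libraries.

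Across the 10 libraries some of the enzymes followed each other, given as a description, since libraries share genotype and depth. Sod, Sod2 and Trxr-1 followed each other with Pearson r between 0.91 and 0.95 on the log2(FPKM + 1) scale. Without the 2 shallow libraries the same 3 pairs had r of 0.59 to 0.72. Jafrac1 followed Sod2 (r = 0.85, and 0.91 in the 8 libraries) and Trx-2 (r = 0.71 and 0.89). Duox ran against Trx-2 (r = -0.87 and -0.93) and Jafrac1 (r = -0.77 and -0.83). Cat changed sides, with r of 0.46 to Sod over 10 libraries and -0.59 over 8. PHGPx did so too, with r of 0.71 to Trxr-1 over 10 libraries and -0.58 over 8.

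**Figure D3:**
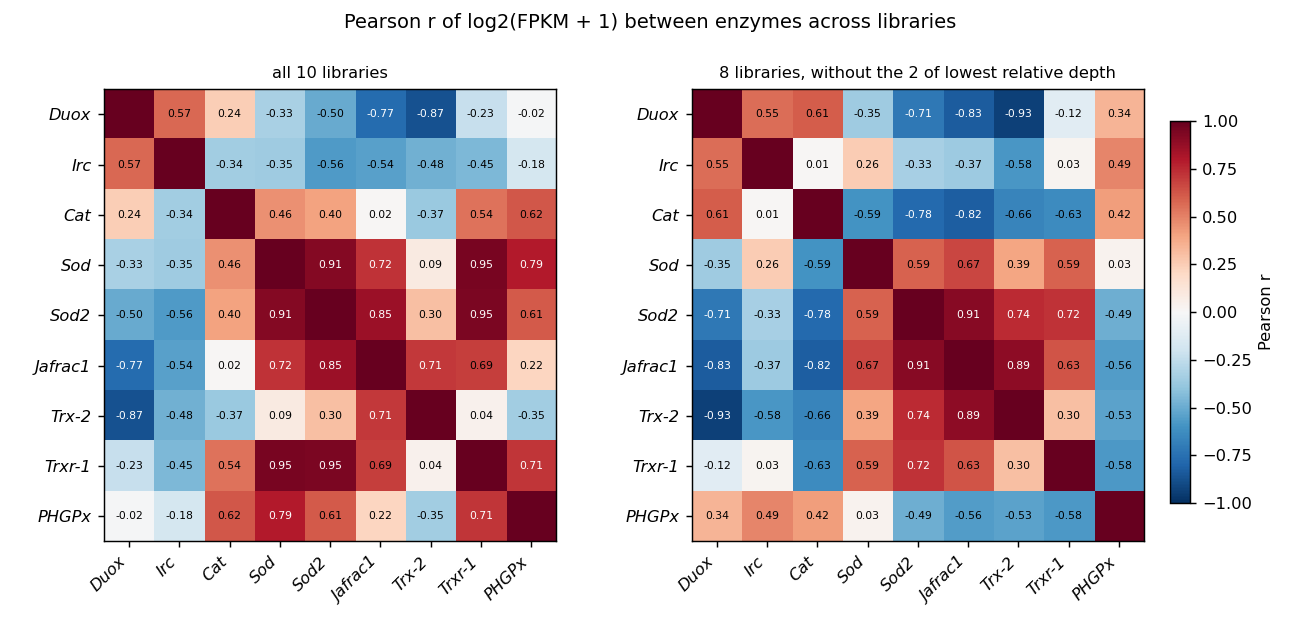
Pearson r of log2(FPKM + 1) between each pair of the 9 genes, over all 10 libraries (left) and over the 8 libraries without y w replicate 1 and atf3[76] replicate 1 (right); red is positive and blue negative. The Sod, Sod2 and Trxr-1 pairs stand at 0.91 to 0.95 on the left and 0.59 to 0.72 on the right, and Duox stays opposite to Trx-2 in both.

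Among 6807 genes above 1 in every library with a median of at least 5 FPKM, the genes most like each member over the 10 libraries were found by the same r. Sod2 was followed most closely by CG3731, CG7430 and RFeSP (r = 0.99 each, and 0.96 to 0.97 over 8 libraries). Trxr-1 was followed by EfTuM, Past1 and Hsp60 (r = 0.98 each, and 0.83, 0.81 and 0.97 over 8). Jafrac1 was followed by CG12859, CG5037 and CG2065 (r = 0.96 to 0.97, and 0.95 to 0.98 over 8). Duox was followed by Exp6, Cirl and CG13366 (r = 0.99 each, also over 8), and Irc by CG16734, cin and CG7133 (r = 0.97, 0.94 and 0.94, and 0.98, 0.92 and 0.92 over 8). Sod was followed by CG2789, yellow-d and CG1707 (r = 0.98, 0.97 and 0.97, and 0.92, 0.82 and 0.82 over 8), and Trx-2 by CG6503, Cpr47Ec and CG33307 (r = 0.96, 0.95 and 0.94, and 0.98, 0.96 and 0.93 over 8). Cat and PHGPx had the least close neighbours, CG31150, yip2 and Tig for Cat (r = 0.90, 0.87 and 0.86, and 0.84, 0.70 and 0.83 over 8) and Obp99c, Aldh-III and Ppat-Dpck for PHGPx (r = 0.95, 0.90 and 0.90, and 0.82, 0.73 and 0.75 over 8). These are the highest of 6807 values for each member and carry no test.

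Glutathione, the other thiol buffer of the cell, was followed through 7 genes of its synthesis and use, of which 6 were tested and CG15116 was listed at 1 throughout. None was called. Gclc, the catalytic subunit of the enzyme that limits glutathione synthesis, measured 30.3 and 21.9 FPKM in y w and 14.3 to 21.4 FPKM in the 8 others, the other of the 2 pathway genes below both y w libraries throughout (difference -0.56 ± 0.15, adjusted p = 0.179). The glutaredoxin gene CG6852 had the highest median of the list, 99.5 FPKM, and Grx-1 measured 14.0 and 10.1 FPKM with foxo/+ against 12.2 and 4.92 in y w. Of the 2 methionine sulfoxide reductases, which repair oxidised methionine with thioredoxin, Eip71CD had a median of 38.6 FPKM. SelR was listed at 1 in y w replicate 1, atf3[76] replicate 1 and rel/+ replicate 2 and stood at 16.4 to 29.1 FPKM in the 7 other libraries, so no fold is given.

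The transcription factor Cnc, the fly homologue of Nrf2, and its partner Maf-S switch on many antioxidant genes, and Keap1 holds Cnc in check. None of the 3 was called. cnc measured 18.2 and 19.3 FPKM in y w and 18.5 to 29.2 FPKM in the 8 others (difference 0.41 ± 0.16, adjusted p = 0.281). maf-S measured 19.3 and 22.1 FPKM in y w and 19.1 and 19.5 with atf3[A]/+, against 26.0 to 34.4 FPKM in the other 3 genotypes. NADPH for Trxr-1 comes from 4 listed dehydrogenases, all of which lay below 0 in the mean of the 4 atf3[76] genotypes against y w, with a median of -0.37 and no call. Men, malic enzyme, measured 84.1 and 64.5 FPKM in y w and 40.5 to 75.4 FPKM in the others (difference -0.49 ± 0.22, adjusted p = 0.315). Idh, the NADP-dependent isocitrate dehydrogenase, measured 136 and 100 FPKM in y w, 67.3 and 78.6 with foxo/+ and 107 and 150 with atf3[A]/+.

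**Figure D4:**
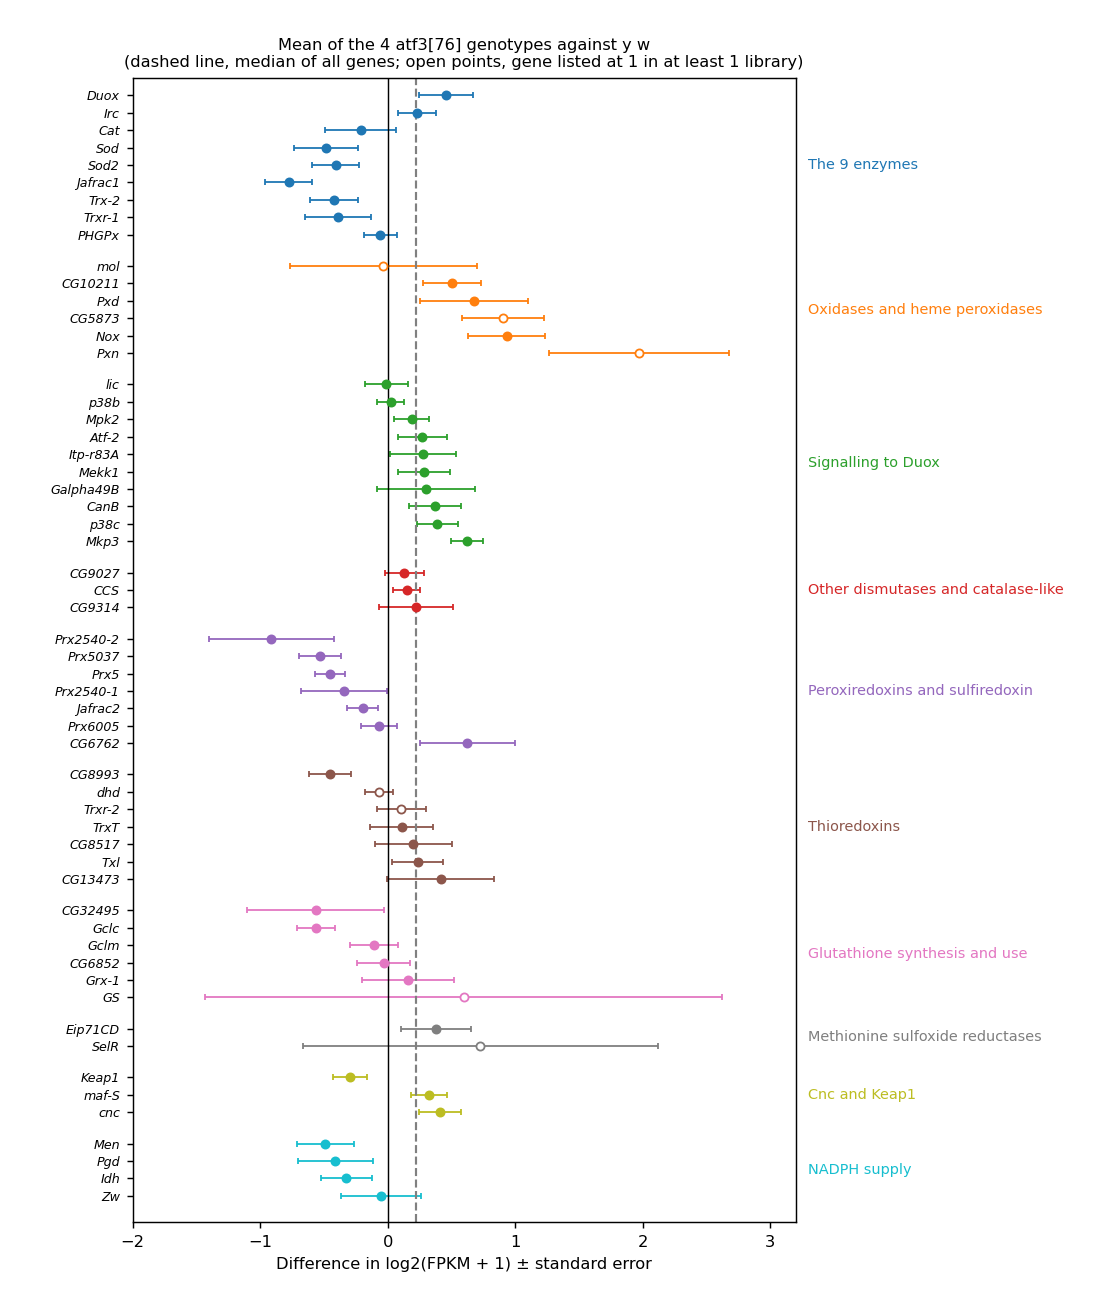
Mean difference of the 4 atf3[76] genotypes from y w in log2(FPKM + 1) with its standard error (horizontal axis) for the 9 enzymes and the tested genes of each pathway list, grouped and coloured by list; the dashed line is the median of all genes, 0.22, and open points were listed at 1 in at least 1 library. Of the peroxiredoxin list 6 of 7 genes and of the NADPH list 4 of 4 lie below 0, as does Jafrac1 at -0.77, and 5 of 6 oxidases and heme peroxidases lie above it.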

How the data were processed

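RNA-seq of whole male larvae was analysed in 10 libraries, 2 for each of 5 genotypes. The submitters' processing notes name genome build BDGP R5 (dm3), Cufflinks 1.1.0 and TopHat 1.3.2. No source used here gives the annotation, strand setting or filters. The deposited data were 4 tables of 14148 records with the authors' FPKM per library, whose lowest value was 1, and with identical y w columns. The deposited tables also hold a fold change per record, a signed score, and the authors' call. Records sharing a symbol (94 symbols) were summed, where above 1. Coordinates are those of the deposited tables. Depth per library is unknown; relative depth was read from the steps between values of records of 140 and 137 bp, with a tolerance of 0.03 fragments.

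Values were fitted as log2(FPKM + 1) with limma 3.58.1 (R 4.3.3), keeping genes that exceeded 1 in any library of the fit. Each mutant genotype and y w were fitted as a pair of groups. One model of all 10 libraries gave the contrasts with atf3[76], the mean of the 4 atf3[76] genotypes against y w and the test of any difference. Benjamini-Hochberg adjustment ran over all genes tested, with a threshold of 0.05; the fits were tested on simulated data. Summaries and figures used Python 3.11.15 with pandas 2.3.3. Alternatives were a pseudocount of 0.1, no filter or a mean of at least 5 FPKM, centred libraries, quantile normalization, a replicate block, 1 record per symbol, and leaving out libraries. The replicate numbers were not used as pairs.

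The members and the gene lists were chosen with earlier results of these data known. All members are named; from each pathway list, genes called in any comparison, the 2 genes with the smallest p for any difference and the gene of highest median are named; and for each member the 3 genes with the highest r are named. Of the listed genes 89 matched by symbol and 4 by gene identifier.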

Additional observations from a re-analysis of the deposited data

How the results depend on the processing

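Over the 946 recomputed log2 differences of the 9 genes, 72 changed sign, all of values that were not called, and 1 crossed the threshold. With no filter on low values Jafrac1 passed in rel/+ against y w, so that 1 member was called there (adjusted p = 0.0292); across the 13 alternatives its adjusted p there ran from that value to 0.455. Jafrac1 stayed below 0 in all 13 alternatives of each comparison with y w and in all 18 of the mean of the 4 genotypes, where it ranged from -0.99 to -0.71. Of the 438 recomputed values of pathway genes 18 changed sign, and Pxn in the mean of the 4 genotypes passed in 3 of 18 alternatives. The cause of these changes was not tested. The low depth of y w replicate 1 and atf3[76] replicate 1, the floor of 1 FPKM and 2 libraries a genotype limit every value. A lone library left in a group was assumed to vary like the others.

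Genes past the threshold numbered, with their range across the alternatives, 4 (0 to 42) for atf3[76] against y w, 22 (0 to 182) for foxo/+ against y w, 63 (0 to 240) for rel/+ against y w, 40 (0 to 75) for atf3[A]/+ against y w, 6 (5 to 151) for foxo/+ against atf3[76], 10 (8 to 169) for rel/+ against atf3[76], 9 (6 to 143) for atf3[A]/+ against atf3[76], 65 (22 to 133) for the mean of the 4 genotypes, 47 (28 to 196) for any difference. With the replicate block no member was called, and 36, 36, 165, 0, 5, 8, 9, 51, 30 genes passed in the same order. With the block Pxn kept its call with rel/+ (adjusted p = 0.006152) and lost it with atf3[A]/+ (adjusted p = 0.1016). The numbers were not taken to pair the libraries, since the deviations of same-numbered libraries correlated at r over 0.1 in 3 of 10 pairs of genotypes. The range was -0.23 to 0.44, and the highest was y w with atf3[76], whose replicates 1 are the 2 shallow libraries. The alternative with the 2 shallow libraries left out of comparisons with y w was chosen after seeing the data.

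With libraries centred, differences of the other sign were PHGPx -0.086 for atf3[76] against y w, Irc -0.18 for foxo/+ against y w, Cat -0.18 for foxo/+ against atf3[76], Irc 0.12 and PHGPx 0.056 for atf3[A]/+ against atf3[76], Mpk2 -0.030, CG9027 -0.088, CCS -0.070, Trxr-2 -0.11, CG8517 -0.016 and Grx-1 -0.058 for the mean of the 4 genotypes. After quantile normalization, differences of the other sign were PHGPx -0.030 for atf3[76] against y w, Duox -0.019 and Irc -0.057 for foxo/+ against y w, Duox -0.070 for rel/+ against y w, PHGPx 0.15 for atf3[A]/+ against y w, Duox -0.087, Jafrac1 0.0015 and Trx-2 0.12 for foxo/+ against atf3[76], Duox -0.14 for rel/+ against atf3[76], Irc 0.13, Trx-2 0.030 and PHGPx 0.17 for atf3[A]/+ against atf3[76], CCS -0.10, Trxr-2 -0.14, CG6852 0.031 and Grx-1 -0.089 for the mean of the 4 genotypes. Without the 2 shallow libraries, differences of the other sign were Sod 0.046, Sod2 0.070, Jafrac1 0.034 and Trxr-1 0.18 for foxo/+ against atf3[76], Cat 0.041, Sod 0.18, Sod2 0.099, Trxr-1 0.16 and PHGPx 0.057 for rel/+ against atf3[76], PHGPx 0.072 for atf3[A]/+ against atf3[76], Cat 0.28, PHGPx 0.020 and SelR -0.77 for the mean of the 4 genotypes. In one model without the 2 shallow libraries, differences of the other sign were Cat 0.090 for atf3[76] against y w, Cat 0.31 for foxo/+ against y w, Cat 0.13 and PHGPx 0.064 for rel/+ against y w, PHGPx 0.079 for atf3[A]/+ against y w. Leaving out 1 library at a time, the range was Cat -0.78 to 0.30, Sod -0.63 to 0.29, Trxr-1 -0.56 to 0.27, Duox -0.018 to 0.48, PHGPx -0.11 to 0.22 and Sod2 -0.51 to 0.050 for atf3[76] against y w. Ranges on leaving out 1 library were Cat -0.77 to 0.31 for foxo/+ against y w. Leaving out 1 library at a time, the range was Cat -0.95 to 0.13 and PHGPx -0.17 to 0.064 for rel/+ against y w. Ranges on leaving out 1 library were PHGPx -0.16 to 0.079, Cat -0.51 to 0.57 and Irc -0.088 to 0.38 for atf3[A]/+ against y w. Leaving out 1 library at a time, the range was Sod -0.87 to 0.046, Sod2 -0.49 to 0.070, Jafrac1 -0.41 to 0.089, Trxr-1 -0.65 to 0.18, Irc -0.13 to 0.13, Cat -0.19 to 0.22 and Trx-2 -0.20 to 0.15 for foxo/+ against atf3[76]. Ranges on leaving out 1 library were Cat -0.38 to 0.041, Sod -0.74 to 0.18, Sod2 -0.46 to 0.099, Trxr-1 -0.67 to 0.16 and PHGPx -0.27 to 0.057 for rel/+ against atf3[76]. Leaving out 1 library at a time, the range was PHGPx -0.26 to 0.072 and Irc -0.26 to 0.21 for atf3[A]/+ against atf3[76]. Ranges on leaving out 1 library were Cat -0.75 to 0.33, PHGPx -0.17 to 0.061, CG9314 -0.21 to 0.66, Trxr-2 -0.24 to 0.45, CG6852 -0.40 to 0.34, Grx-1 -0.42 to 0.74, Eip71CD -0.085 to 0.85 and SelR -1.23 to 2.68 for the mean of the 4 genotypes.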
